A study of Homo sapiens with 8 samples.

Results

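The miR-548 family is a large group of human microRNAs (miRNAs), small RNAs that guide Argonaute proteins to messenger RNAs with a matching site. Its members were taken as every mature miRNA name beginning with miR-548 and then a letter or a hyphen in any of the 8 deposited tables. That rule gave 58 names of the 1818 names with a read in any library, and a name missing from a library was set to 0 there. The libraries came from HCT116, a human colorectal carcinoma cell line, and all were DICER rescue samples. The 4 groups were DICER Wild-Type (WT), R1855L, R821H and R1003Q, the last 3 each carrying 1 amino acid substitution in DICER, with 2 libraries per group. The sources used here do not give what the cells lacked before rescue, how the rescue was expressed, or whether a group is 1 clone. The libraries were made from total RNA by AQ-seq, a small RNA library method designed to lower ligation bias. The labels do not say whether the replicates are separate cultures, so p-values reflect only how far replicate libraries lie apart, and that may be technical.

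The family is primate-specific and derives largely from Made1, a short palindromic DNA transposon whose transcripts fold back into hairpins. Such a hairpin is cut from its primary transcript in the nucleus, and the DICER enzyme then cuts off the loop, leaving a duplex of a 5p strand (from the 5′ arm) and a 3p strand (from the 3′ arm). Usually 1 strand is kept in Argonaute, and its bases 2 to 8, the seed, pair with targets. The arginine replaced in R1855L lies in the double-stranded RNA-binding domain at the C-terminal end of DICER.

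Library totals ran from 462805 to 4269231 reads. WT replicate 2, R1855L replicate 1 and R821H replicate 1 were deep, at 2241881 reads or more, and the other 5 libraries, both R1003Q libraries among them, were shallow, at 1143373 reads or fewer. Of 9 markers of colon epithelium, 8 were present in every library and miR-215-5p was at 0 in some, and their summed level was 40968 to 56762 CPM (counts per 1000000 reads of the library). Blood cell markers summed to 633 to 1095 CPM with miR-155-5p at 0 in some libraries, neuronal markers to 534 to 1076 CPM with miR-9-5p present and miR-124-3p at 0 in some, the liver marker miR-122-5p was at 60.7 to 114 CPM, and muscle markers summed to 3.28 to 11.8 CPM. Their part in the results was not tested.

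The mature sequences show what the members share and where they differ. The 12 printed here are the members abundant enough to be tested for which the RefSeq table (GRCh38.p14) held a sequence, written 5′ to 3′ with the seed in capitals and grouped by arm, the 5′-arm members first.
miR-548b-5p: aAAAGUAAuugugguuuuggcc
miR-548w: aAAAGUAAcugcgguuuuugccu
miR-548aq-5p: gAAAGUAAuugcuguuuuugcc
miR-548ai: aAAGGUAAuugcaguuuuuccc
miR-548n: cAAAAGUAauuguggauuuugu
miR-548e-5p: cAAAAGCAaucgcgguuuuugc
miR-548k: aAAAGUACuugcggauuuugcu
miR-548l: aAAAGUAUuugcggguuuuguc
miR-548b-3p: cAAGAACCucaguugcuuuugu
miR-548o-3p: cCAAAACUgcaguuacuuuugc
miR-548ay-3p: cAAAACCGcgauuacucuugca
miR-548ar-3p: uAAAACUGcaguuauuuuugc
The first 3 share the seed AAAGUAA. MiR-548k and miR-548l hold AAAGUAC and AAAGUAU, and miR-548n holds the AAAGUA run shifted by a base, as AAAAGUA. The 3′-arm members share no seed with the 5′-arm members or with each other in this set.

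Over all 58 names, 41 matched a RefSeq sequence and 17 did not, miR-548d-5p, miR-548d-3p, miR-548a-5p, miR-548a-3p and miR-548e-3p among the latter. The 41 held 25 different seeds. AAAGUAA was carried by 9 names (miR-548b-5p, w, aq-5p, j-5p, ak, ar-5p, ab, bb-5p and y), all from the 5′ arm, which together had 3521 reads or 29.7% of all member reads. The 17 names without a sequence, miR-548d-5p with 1530 reads among them, count in that total but were given no seed. The share and the sums below are therefore minimum values for this seed. Unscaled, these 9 names summed to 201 and 280.4 CPM with WT DICER, 322 and 239.8 with R1855L, 238 and 166 with R821H, and 179 and 182 with R1003Q, and the R1855L and R821H libraries overlapped with WT. Both R1003Q libraries were below both WT libraries on this scale, but not after the trimmed mean of M-values (TMM) scaling used for levels further on, where the sums were 174 and 311 CPM in WT and 183 and 175 in R1003Q. The next widest seeds were rare in the libraries: AAAAACU, in 4 names from the 3′ arm, had 37 reads, and GCAAAAG, in 3 names from the 5′ arm, had 41. The 41 sequences were rich in A and U, with a median of 65% (range 45.5% to 72.7%) against 47.8% for the 2315 other names in the table. Their median length was 22 bases, as for the other names.

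A pair of motifs divided the arms. AAGUAA was found in 14 of 23 members from the 5′ arm and 0 of 18 from the 3′ arm. Its reverse complement UUACUU was found in 0 of 23 from the 5′ arm and 11 of 18 from the 3′ arm. Among the 2315 other names, 0.389% held AAGUAA and 0.389% held UUACUU, against 34.1% and 26.8% of the 41 members. The match describes the letters only. The first base was A in 43.9% of the members and U in 17.1%, against 27.2% and 37.3% of the other names.

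This likeness bears on counting. Among the 41 sequences, 1 pair was identical (miR-548aj-5p and miR-548g-5p), 5 pairs were 1 edit apart and 12 pairs were 2 edits apart. MiR-548ai has the same mature sequence as miR-570-5p, which is no member of the family by name. MiR-548ai had 74, 480, 326, 28, 360, 38, 50 and 43 reads in the libraries in the order WT 1, WT 2, R1855L 1, R1855L 2, R821H 1, R821H 2, R1003Q 1 and R1003Q 2. MiR-570-5p had 74, 487, 342, 28, 366, 40, 47 and 43, so the counts were equal in 3 libraries and differed by at most 6.19% in the rest. These near-equal counts show that the same reads appear to stand under both names, so the level of miR-548ai cannot be told apart from that of miR-570-5p. Fractions of a read occurred in 5 members, with denominators equal to the number of hairpin genes of that name in GENCODE release 29: 2 for miR-548d-5p, miR-548d-3p and miR-548o-3p, 3 for miR-548a-3p and 4 for miR-548i. A value of such a name therefore stands for several loci at once.

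The family's hairpin genes were spread over the genome. GENCODE release 29 (GRCh38) lists 72 of them on 22 chromosomes. Of these, 36 lay in introns of protein-coding genes on the same strand, 9 (12.5%) in such introns on the opposite strand, 21 (29.2%) in no listed gene, and the other 6 in introns of non-coding genes. MIR548B lay at chr6:119069047-119069143 (minus strand) in an intron of FAM184A. MIR548W lay at chr16:26025237-26025310 (plus) in an intron of HS3ST4, and MIR548N at chr7:34940760-34940834 (minus) in an intron of DPY19L1. MIR548AQ lay at chr3:185767847-185767904 (minus) in an intron of IGF2BP2. MIR548AI, at chr6:99124609-99124696 (plus), lay in no listed gene. One of the loci of miR-548d, MIR548D2 at chr17:67471489-67471585 (minus), lay in an intron of PITPNC1 on the opposite strand. These genes lay on different chromosomes, except MIR548B and MIR548AI, which were both on chromosome 6.

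The whole family was a small share of the miRNA reads. Its summed share was 0.0734% of reads in WT 1 (95% Clopper-Pearson interval 0.0685% to 0.0785%) and 0.0900% in WT 2 (0.0872% to 0.0929%). In R1855L it was 0.113% (0.109% to 0.118%) and 0.0789% (0.0710% to 0.0874%), in R821H 0.0791% (0.0761% to 0.0822%) and 0.0599% (0.0548% to 0.0653%), and in R1003Q 0.0630% (0.0585% to 0.0677%) and 0.0587% (0.0531% to 0.0648%). No molecular identifiers are described for the reads, so these intervals, and the floor below, cover counting error only. Both R1003Q shares were below both WT shares, and the R1855L and R821H shares overlapped with WT. After TMM scaling R1003Q overlapped with WT too, at 644 and 564 CPM against 634 and 999. The group means of the unscaled shares were 0.0817% ± 0.0117 in WT, 0.0959% ± 0.0241 in R1855L, 0.0695% ± 0.0136 in R821H and 0.0609% ± 0.003 in R1003Q (SD, n = 2 each). As a sum over chosen members these shares are given as a description, with no test.

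Few members made up most of that share. The top 5 names held 60.05% of the 11839.8 member reads and the top 10 held 85.1%, while 18 names had under 10 reads in all 8 libraries together and 6 were seen in a single library. Detection was higher in the deep libraries: 37 and 49 members had a read with WT DICER, 47 and 31 with R1855L, 45 and 30 with R821H, and 39 and 30 with R1003Q. It did not strictly follow the totals, as R1855L 2, the shallowest library, had more members than R821H 2 and R1003Q 2. Drawn down to the smallest total, the expected numbers lay between 25.1 (R821H 2) and 33.1 (R1855L 1). A floor of 3 reads was worth 0.703 CPM in WT 2 and 6.48 CPM in R1855L 2, the deepest and the shallowest library.

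Levels below are CPM after TMM scaling, which adjusts each library for its composition. A gene-length correction is not needed for miRNAs of near-equal length. The most abundant member, miR-548b-5p, was at 90.4 and 136 CPM with WT DICER, 237 and 143.5 with R1855L, 156 and 118 with R821H, and 113 and 118 with R1003Q. It ranked 235 of the 625 names that passed the filter on low counts. MiR-548d-5p was at 86.6 and 80.9 with WT DICER, 249.8 and 99.4 with R1855L, 83.4 and 129 with R821H, and 138 and 51.9 with R1003Q. Its replicates thus lay further apart than those of miR-548b-5p in R1855L, R821H and R1003Q, and closer together in WT.

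MiR-548ai stood at 56.2 and 125 CPM with WT DICER, 160.3 and 51.5 with R1855L, 123 and 45.3 with R821H, and 44.7 and 61.1 with R1003Q. MiR-548w stood at 66.8 and 132 with WT DICER, 80.2 and 47.8 with R1855L, 85.9 and 38.1 with R821H, and 57.2 and 49.8 with R1003Q. MiR-548n stood at 28.9 and 87.4 with WT DICER, 118 and 47.8 with R1855L, 86.6 and 50.02 with R821H, and 35.8 and 34.1 with R1003Q. For all 3 members, the deep library was the higher one in WT, R1855L and R821H.

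MiR-548d-3p, the opposite strand of miR-548d-5p, was at 80.5 and 123 CPM with WT DICER, 59.3 and 55.2 with R1855L, 67.7 and 45.3 with R821H, and 44.7 and 41.2 with R1003Q. All 6 substitution libraries were below both WT libraries. On unscaled CPM this held for miR-548d-3p and also for miR-548w and miR-548e-5p. The share of all tested names with such a pattern was not worked out. MiR-548b-3p was at 51.6 and 61.9 with WT DICER, 68.8 and 46.0 with R1855L, 63.4 and 48.8 with R821H, and 54.5 and 46.9 with R1003Q, and its groups overlapped. MiR-548b-3p and miR-548e-5p were the steadiest of the tested members, with coefficients of variation of 15.4% and 14.3% over the 8 libraries. MiR-548aq-5p varied most, at 81.3%, from 1.42 CPM in R1003Q 2 to 31.2 in WT 2. The strands of miR-548a and miR-548e were lower. MiR-548a-5p was at 22.0 and 49.7 CPM with WT DICER, 58.5 and 11.04 with R1855L, 46.0 and 13.1 with R821H, and 20.6 and 21.3 with R1003Q, highest in the 3 deep libraries. MiR-548a-3p, its opposite strand, was at 37.5 and 29.8 with WT DICER, 30.98 and 51.5 with R1855L, 25.7 and 16.7 with R821H, and 16.99 and 28.4 with R1003Q. It was not highest in the deep libraries, so the strands of miR-548a differed in which libraries were high. MiR-548e-5p was at 17.5 and 19.5 with WT DICER, 13.3 and 12.9 with R1855L, 15.0 and 16.7 with R821H, and 17.9 and 15.6 with R1003Q. MiR-548e-3p was at 13.7 and 16.4 with WT DICER, 15.7 and 23.9 with R1855L, 17.1 and 15.5 with R821H, and 7.15 and 24.2 with R1003Q, with its lowest and highest values both in R1003Q.

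The order of the first 5 by mean level was b-5p, d-5p, ai, w and d-3p, and neighbours in that order did not differ beyond their spread over the libraries.

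**Figure D1:**
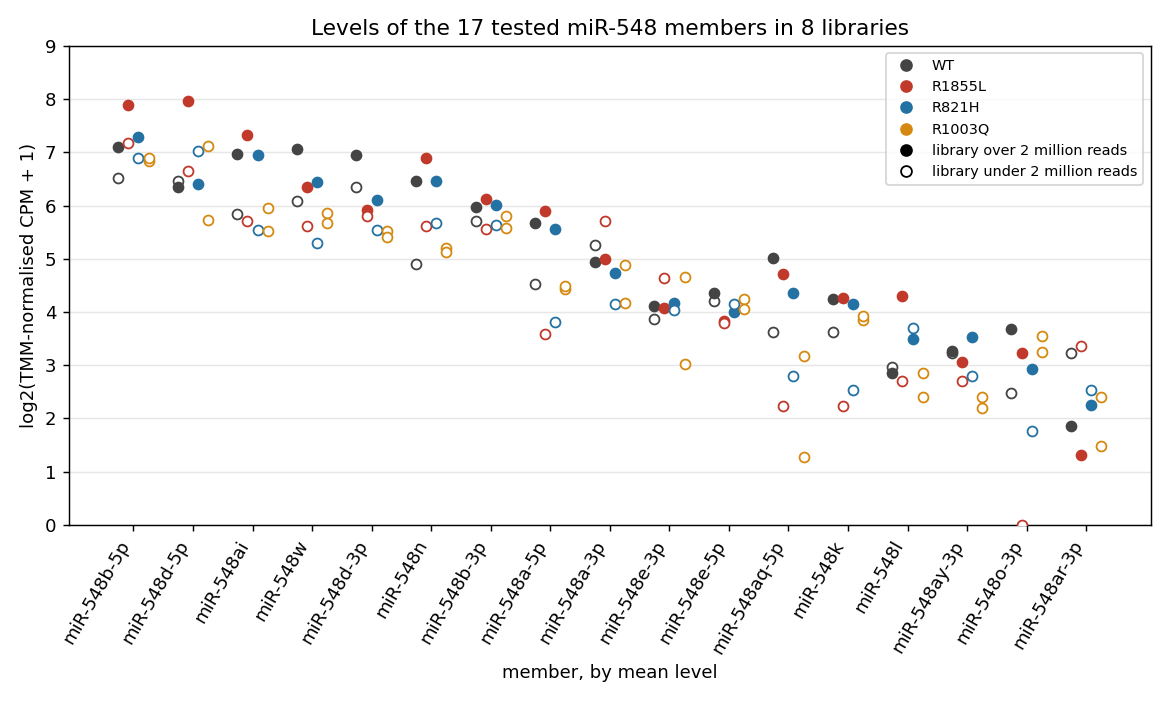
Level of each tested member (log2 of TMM-scaled CPM plus 1) in each of the 8 libraries, coloured by group, with deep libraries filled and shallow ones open. MiR-548d-3p lies below both WT libraries in all 6 substitution libraries, while miR-548b-3p stays between 46.0 and 68.8 CPM. How common the pattern of miR-548d-3p is among all tested names was not worked out.

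Most reads came from the 5′ arm. Placed on the GENCODE hairpins by RefSeq coordinates (a suffix was used where these were missing), all 25 suffixed names with coordinates lay on the arm their suffix gives, and of the 20 names without a suffix 11 lay on the 5′ arm, 5 on the 3′ arm and 4 were not placed. The 31 names of the 5′ arm held 8882 reads (75.0% of the members' reads) and the 23 of the 3′ arm 2858 (24.1%). The 3′ arm's share was 34.3% and 26.7% with WT DICER, 16.5% and 30.4% with R1855L, 23.0% and 23.8% with R821H, and 24.0% and 28.97% with R1003Q. R1855L 1 had the lowest and WT 1 the highest share, and only in R821H were both libraries below both WT libraries.

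As unscaled CPM, the 3′ arm summed to 252 and 240.2 with WT DICER, 187 and 239.8 with R1855L, 182 and 143 with R821H, and 151.3 and 170.1 with R1003Q. All 6 substitution libraries were below both WT libraries, by under 1 CPM in R1855L 2. This also held after TMM scaling, with 217 and 267 CPM in WT and 143 to 207 in the others. The 5′ arm summed to 478 and 651.9 with WT DICER, 937 and 540.2 with R1855L, 603.1 and 448 with R821H, and 469 and 411 with R1003Q. There R1003Q was below both WT libraries only without scaling: after TMM scaling it was at 479 and 395 CPM against 413 and 724. The other 2 groups overlapped with WT on both scales. The mean for the 3′ arm was 246 ± 8.06 in WT, 213 ± 37.6 in R1855L, 162 ± 27.99 in R821H and 161 ± 13.3 in R1003Q (SD, n = 2 each). MiR-548d-3p is the most abundant member of that arm and was itself below both WT libraries in all 6 substitution libraries. The sums alone therefore do not show a shift of the whole arm. In R1855L only miR-548ay-3p among the other tested members of this arm lay below both WT libraries. The rest overlapped with WT on both scales. In R821H miR-548a-3p lay below both WT libraries on both scales, and miR-548b-3p only unscaled. In R1003Q miR-548ay-3p did so on both scales, miR-548a-3p only after TMM scaling and miR-548b-3p only unscaled. The other tested members of the arm overlapped with WT in these groups, miR-548d-3p apart. The arm's sum without miR-548d-3p was not worked out.

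**Figure D2:**
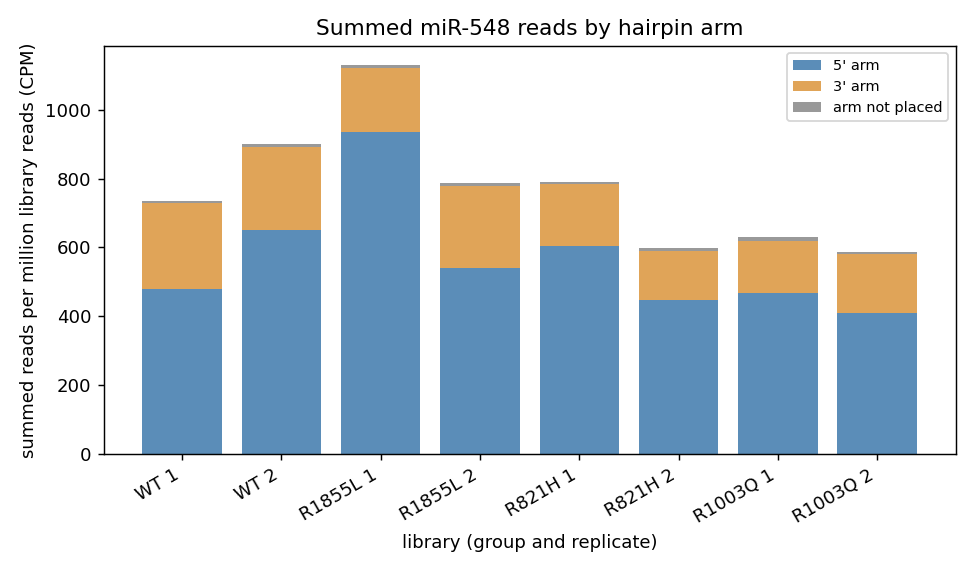
Stacked bars of the members' summed reads (unscaled CPM) in each library, by hairpin arm, with reads of names that were not placed on top. The 3′ arm summed to 252 and 240.2 CPM in WT and to 143 to 239.8 CPM in the 6 substitution libraries.

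Of the 58 members, 17 passed the filter on low counts and were tested, 10 from the 5′ arm and 7 from the 3′ arm, 2.72% of the 625 names tested. The test was edgeR's quasi-likelihood test on the counts, with p-values adjusted over all 625 names, and a member was called when its adjusted p was under 0.05. Values are log2 fold changes over WT with their standard errors (SE). The other 41 had at most 69 reads each over the 8 libraries and 6.28% of the members' reads. The tested members were low among all tested names, with a median of 29.7 CPM against 62.3, and 5 of the 17 lay above the median level. The comparisons below all use the same WT libraries, so their values are not independent of each other.

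The first comparison asked whether R1855L changed the family's level. MiR-548d-5p, miR-548l and miR-548b-5p had the largest values above WT and miR-548d-3p the largest below, and no member passed the test. MiR-548d-5p averaged 175 ± 106 CPM against 83.7 ± 4.03 in WT, a log2 fold change of 1.08 (SE 0.56, edgeR adjusted p = 0.364). MiR-548b-5p averaged 190.3 ± 66.1 against 113 ± 32.5, a log2 fold change of 0.75 (SE 0.34, edgeR adjusted p = 0.293). Both libraries of each were above both WT libraries. Without R1855L replicate 1 these values were 0.14 for miR-548d-5p and 0.24 for miR-548b-5p, and without R1855L replicate 2 they were 1.56 and 1.05.

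MiR-548d-3p averaged 57.1 ± 2.69 CPM in R1855L against 102 ± 29.9 in WT, a log2 fold change of -0.83 (SE 0.33, edgeR adjusted p = 0.239). It was the only member with an unadjusted p under 0.05 in each comparison. MiR-548l averaged 12.1 ± 9.31 against 6.54 ± 0.42 (log2 fold change 1.06, SE 0.54, edgeR adjusted p = 0.36), with 1 of its 2 libraries below WT. Without R1855L replicate 1 its value was -0.32. The lowest 3 log2 fold changes also held miR-548o-3p (-0.64, SE 0.88) and miR-548w (-0.61, SE 0.49), whose groups overlapped after TMM scaling. On unscaled CPM both R1855L libraries of miR-548w lay below both WT libraries, at 72.7 and 56.2 against 77.3 and 119. In all, 0 of 17 members were called at an adjusted p under 0.05, against 5.76% of the 625 names, and 1 had an unadjusted p under 0.05, against 18.4%. DESeq2 also called 0 members. Both R1855L libraries were above both WT libraries for 2 members (background 21.1%) and below for 3 (miR-548d-3p, e-5p and ay-3p, background 21.4%). Log2 fold changes were above 0 in 9 members and below in 8, with a median of 0.04 against 0.13 over all tested names. Among members of the 5′ arm 6 of 10 were above 0 (median 0.15), and of the 3′ arm 3 of 7 (median -0.33). Over all tested names the median was 0.22 for those with the suffix 5p and -0.06 for those with 3p.

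With the depth class of the libraries as a term, an alternative choice, 2 members were called in R1855L against 28.3% of the 625 names. These were miR-548b-5p, higher (0.75, SE 0.21, edgeR adjusted p = 0.00901), and miR-548d-3p, lower (-0.86, SE 0.25, edgeR adjusted p = 0.0102). Within the deep libraries alone, R1855L over WT on the log2 scale was 0.79 for miR-548b-5p and -1.04 for miR-548d-3p, and within the shallow ones 0.66 and -0.54, with 1 library on each side. With the log2 library total as a covariate instead, 3 members were called in R1855L (miR-548ai, b-5p and n), against 25.9% of names, and 0 in R821H, against 0.64%.

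In R821H no tested member passed the test, and miR-548d-3p was again the member furthest below WT. MiR-548l (0.74, SE 0.55), miR-548d-5p (0.33, SE 0.56) and miR-548b-5p (0.27, SE 0.34) had the highest log2 fold changes, and miR-548d-3p (-0.84, SE 0.32), miR-548o-3p (-0.74, SE 0.85) and miR-548aq-5p (-0.67, SE 0.86) the lowest. MiR-548d-3p averaged 56.4 ± 15.7 CPM against 102 ± 29.9 in WT, with an edgeR adjusted p of 0.994. No member of 17 was called, nor was any of the 625 names (0%), and DESeq2 also called 0 members. At an unadjusted p under 0.05 there was 1 member, against 3.2% of names. Both libraries were above WT for 1 member, miR-548l (background 15.4%), and below for 3, miR-548d-3p, a-3p and e-5p (background 13.1%). On unscaled CPM miR-548b-3p and miR-548w also lay below both WT libraries. The median log2 fold change was -0.23 over the members, with 6 above 0 and 11 below, and 0.04 over all names.

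In R1003Q no member passed the test. More members lay below WT than above, but with the depth class of the libraries in the model 9 lay below 0 and 8 above, with a median of -0.02. MiR-548d-3p averaged 43.0 ± 2.46 CPM against 102 ± 29.9 in WT, a log2 fold change of -1.24 (SE 0.33, edgeR adjusted p = 0.857). MiR-548aq-5p was at 8.05 and 1.42 CPM against 11.4 and 31.2 (log2 fold change -2.06, SE 1.03), and miR-548ay-3p at 3.58 and 4.27 against 8.35 and 8.58 (-1.12, SE 0.54). The edgeR adjusted p was 0.857 for both. The value of miR-548aq-5p moved between -3.90 (without R1003Q replicate 1) and -1.21 (without WT replicate 2). The highest 3 were miR-548d-5p (0.19, SE 0.56), miR-548o-3p (0.15, SE 0.86) and miR-548b-5p (0.02, SE 0.35). All 3 highest were close to 0 relative to their errors.

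No member of 17 was called in R1003Q, nor any of the 625 names (0%), and DESeq2 also called 0 members. At an unadjusted p under 0.05 there was 1 member, against 4.96% of names. Both R1003Q libraries were below both WT libraries for 6 members (miR-548w, d-3p, a-5p, a-3p, aq-5p and ay-3p, background 17.8%) and above for 0 (background 22.9%). Of these, miR-548a-3p overlapped with WT on unscaled CPM. On that scale miR-548ai, b-3p and e-5p were also below both WT libraries, though not after TMM scaling. The matching share over all names was not worked out for unscaled CPM. Log2 fold changes were below 0 in 14 of 17 members, with a median of -0.58, whereas the median over all tested names was 0.06. Both R1003Q libraries were shallow, and with the depth class in the model the median was -0.02, against 0.04 over all names. That model takes its depth difference from the other groups, so depth and R1003Q cannot be told apart here. Of those 6 members, miR-548w, a-5p and aq-5p were higher in the deep libraries by the test of depth given further on. MiR-548d-3p, a-3p and ay-3p were not called there, and with the depth class their R1003Q values were -0.98, -0.71 and -0.88. With the depth class as a term, 0 members were called in R1003Q, against 0.32% of names, and 0 in R821H, against 2.56%.

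**Figure D3:**
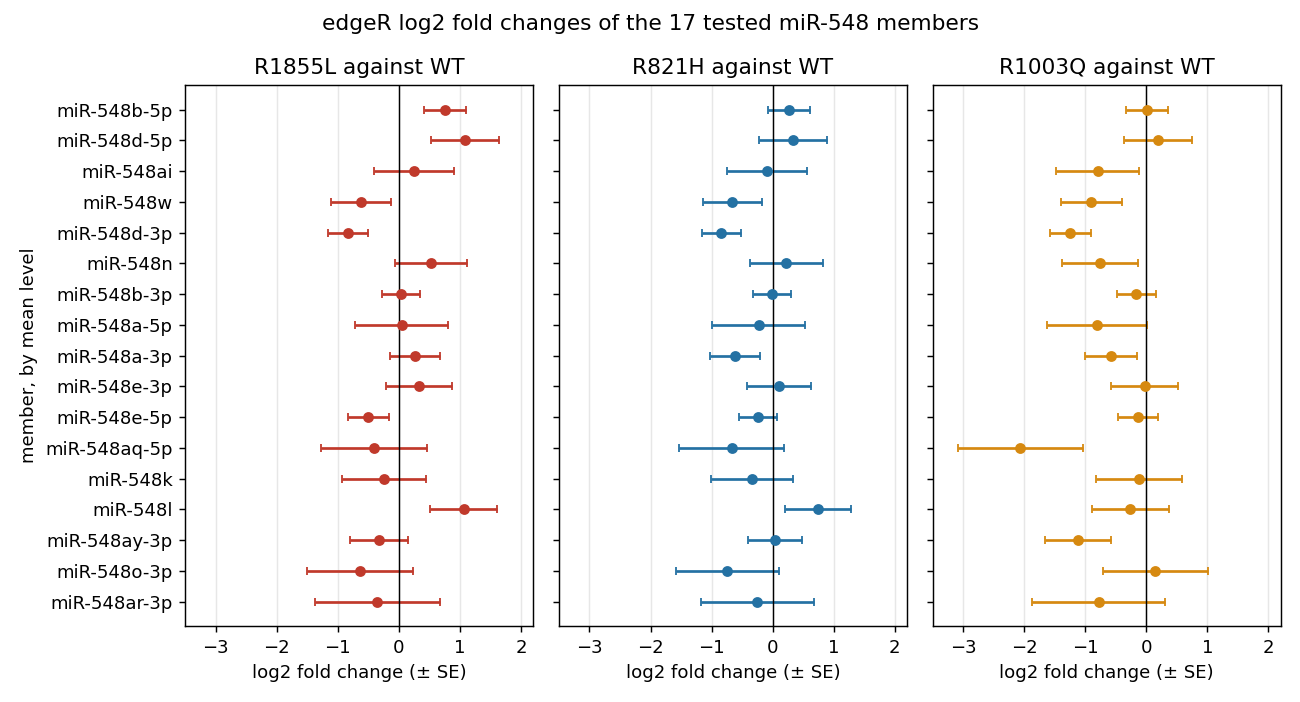
Log2 fold change against WT with its standard error for each of the 17 tested members in R1855L, R821H and R1003Q. MiR-548d-3p is below 0 in all 3 (-0.83, -0.84 and -1.24), and no point passed an edgeR adjusted p of 0.05.

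A test for any difference among the 4 groups called 0 of 17 members, against 2.88% of names, and DESeq2 called 0 members too. At an unadjusted p under 0.05 it held 1 member, miR-548d-3p (edgeR adjusted p = 0.291), against 12.3% of names. The standard error was larger for the members than for names in general: its median was 0.54 in R1855L, 0.55 in R821H and 0.56 in R1003Q, against 0.42, 0.41 and 0.42 over all tested names.

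The ratio of the strands of a hairpin does not depend on library scaling. It was tested for the 4 pairs with at least 80 reads in each strand over the 8 libraries, among 174 such pairs in all. For miR-548d, log2 of 5p over 3p was 0.10 and -0.60 with WT DICER, 2.07 and 0.84 with R1855L, 0.30 and 1.49 with R821H, and 1.61 and 0.33 with R1003Q. All 6 substitution libraries were above both WT libraries. The share of the 174 pairs with such a pattern was not worked out. For miR-548b it was 0.80 and 1.14 with WT DICER, 1.78 and 1.62 with R1855L, 1.30 and 1.26 with R821H, and 1.04 and 1.32 with R1003Q. R1855L and R821H were above both WT libraries and R1003Q overlapped with WT.

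The miR-548d ratio, which pools 2 hairpin genes, averaged -0.25 ± 0.50 in WT and 1.45 ± 0.87 in R1855L, a difference of 1.70 (SE 0.66, limma adjusted p = 0.196). The differences were 1.15 (SE 0.66, limma adjusted p = 0.84) in R821H and 1.22 (SE 0.66, limma adjusted p = 0.759) in R1003Q. The miR-548b ratio differed by 0.73 (SE 0.39, limma adjusted p = 0.352) in R1855L, 0.31 (SE 0.39) in R821H and 0.21 (SE 0.39) in R1003Q. In R1855L the difference was -0.84 (SE 0.67) for miR-548e and -0.60 (SE 0.98) for miR-548a, whose ratios were 0.91 and -2.13 in the 2 R1855L libraries.

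No ratio of the 4 was called in any comparison, against 8.05% of the 174 pairs in R1855L, 0% in R821H and 0% in R1003Q. At an unadjusted limma p under 0.05 there were 1, 0 and 0, against 20.7%, 2.87% and 5.75% of pairs. Both libraries were above both WT libraries for 2 pairs in R1855L (background 32.2%), 2 in R821H (20.1%) and 1 in R1003Q (27.6%). Both were below both WT libraries for 1 pair, miR-548e, in R1855L (background 10.9%) and in R821H (13.2%), and for 0 in R1003Q (10.3%). The miR-548e ratio was 0.35 and 0.25 with WT DICER, -0.24 and -0.85 with R1855L, -0.18 and 0.10 with R821H, and 1.27 and -0.61 with R1003Q. With the depth class as a term, the miR-548d ratio was called in R1855L, at 1.70 (SE 0.49, limma adjusted p = 0.00464), against 18.4% of the 174 pairs called with that term.

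**Figure D4:**
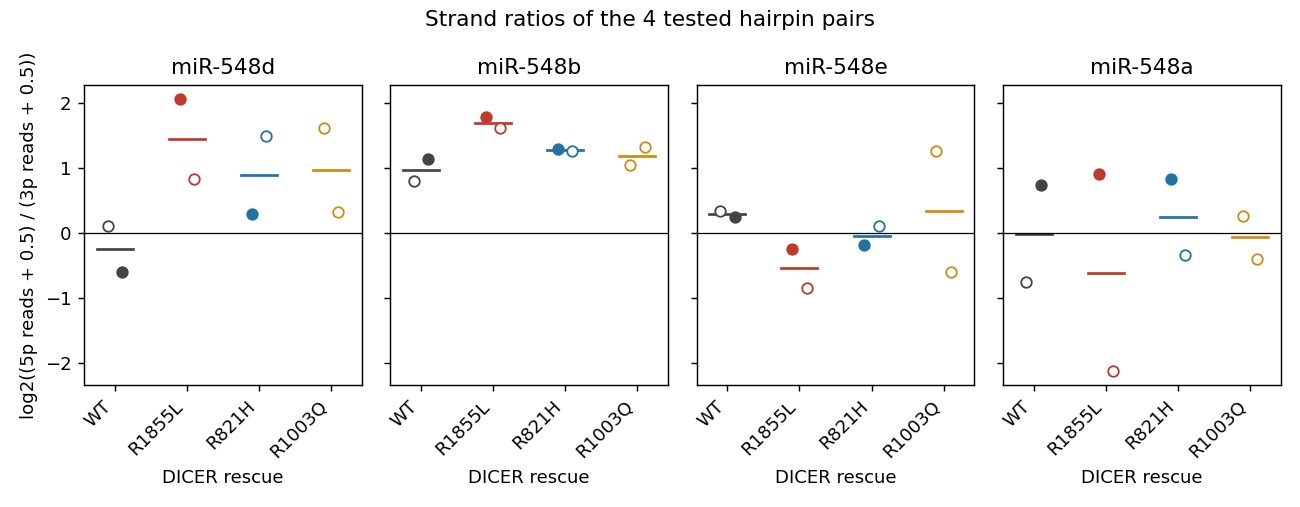
Log2 ratio of 5p to 3p reads in each library (deep filled, shallow open) for the 4 tested hairpins, coloured by group, with a line at each group's mean. The miR-548d ratio is above both WT values (0.10 and -0.60) in all 6 substitution libraries. How common this is among all tested pairs was not worked out.

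The members differed between deep and shallow libraries, a split of the samples by their read totals. With the group in the model, 8 of 17 members were higher in the deep libraries at an edgeR adjusted p under 0.05, and 0 were lower, against 17.8% of all tested names higher and 18.7% lower. Of the 5′-arm members 7 of 10 were higher, and of the 3′-arm members 1 of 7. The matching shares by arm over all tested names were not worked out. Whether this contrast is particular to the family is therefore not known. The largest differences were 1.73 (SE 0.36, edgeR adjusted p = 0.000408) for miR-548aq-5p, 1.72 (SE 0.56, edgeR adjusted p = 0.0173) for miR-548o-3p and 1.63 (SE 0.26, edgeR adjusted p = 1.5e-05) for miR-548a-5p, on the log2 scale. MiR-548ai (1.38), miR-548k (1.25), miR-548n (1.23), miR-548w (0.98) and miR-548b-5p (0.57) were the others. The other 9 did not pass: miR-548d-3p (0.46), b-3p (0.39), ay-3p (0.37), l (0.31), d-5p (0.16) and e-5p (0.03) were above 0, and miR-548e-3p (-0.02), a-3p (-0.21) and ar-3p (-1.42, SE 0.59, edgeR adjusted p = 0.0604) below. Without R1855L replicate 1 the number fell to 5, and leaving out any other library gave 6 to 9. The median difference was 0.46 over the members and -0.03 over all tested names. The labels do not say what else separates the deep from the shallow libraries, so depth cannot be told apart from any other feature that moves with it.

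**Figure D5:**
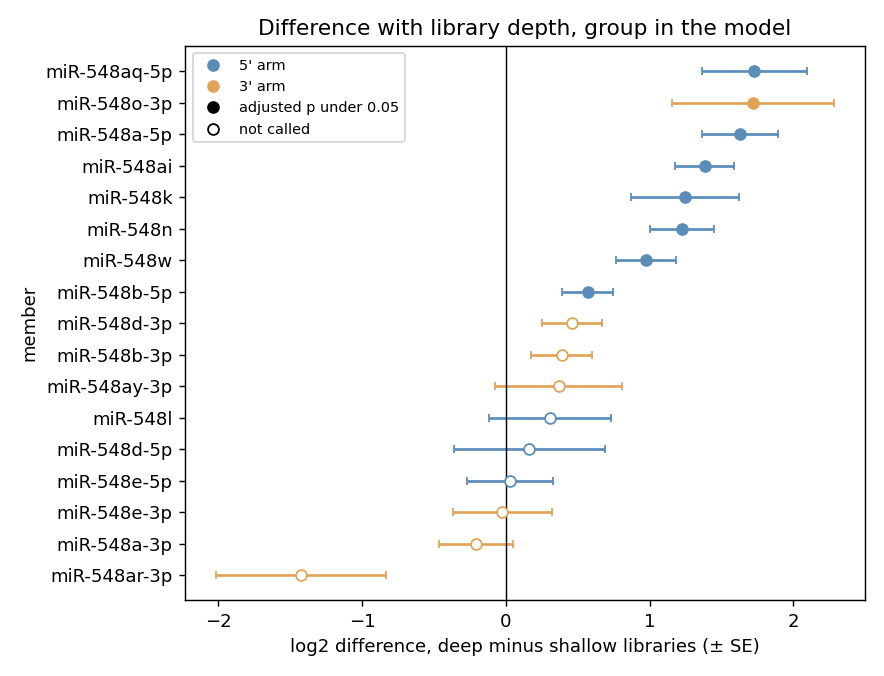
Log2 difference between deep and shallow libraries, with its standard error, for each tested member, coloured by arm, with the group in the model and filled points for members called. The 5′-arm members have a median of 1.10 and the 3′-arm members 0.37, with no matching medians by arm over all names.

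The 41 members too rare to test are given as plain reads. MiR-548o-5p, the opposite strand of miR-548o-3p, had 0 and 12 reads with WT DICER, 31 and 0 with R1855L, 24 and 0 with R821H, and 1 and 1 with R1003Q. All but 2 of its 69 reads were in the 3 deep libraries. MiR-548ae-5p had 0 and 3 reads with WT DICER, 4 and 7 with R1855L, 4 and 1 with R821H, and 0 and 0 with R1003Q. MiR-548au-5p, with 68 reads, and miR-548v, with 64, had reads in all 8 libraries. Differences between groups among these names were not tested.

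Names outside the family that have a member's seed, or are known relatives (miR-570, miR-559 and miR-603), were few: 5 were detected and 2 tested, miR-570-3p and miR-570-5p. Of these 0 were called. MiR-570-3p, from the same hairpin as miR-570-5p, had log2 fold changes of 0.61 (SE 0.36) in R1855L, -0.28 in R821H and -0.57 in R1003Q. MiR-570-5p, whose counts nearly equal those of miR-548ai, had 0.29, -0.07 and -0.85. Among miRNAs from other transposons, 16 of 24 detected names were tested. In R1855L 0 were called higher and 2 lower, miR-151a-3p (-1.75, SE 0.25, edgeR adjusted p = 0.00902, from 5344 ± 995 CPM in WT to 1594 ± 130) and miR-584-3p (-1.82, SE 0.41, edgeR adjusted p = 0.0466). Over all 625 tested names, 5.76% were called in R1855L. No name of either list was called in R821H or R1003Q, against 0% of the 625 names in each. The medians of the other transposon names were -0.44, -0.07 and -0.07, in the same order of comparisons. Over all tested names they were 0.13, 0.04 and 0.06. A difference between these names and the miR-548 members was not tested.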

How the data were processed

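The authors deposited 1 table of estimated counts per library, reads per mature miRNA name, some of them fractional, not normalised and not pooled. Per the submitters' processing notes, cutadapt, BWA and bedtools were used with the builds hg38 and mm10. The sources used here do not give their versions, settings, the role of mm10 or the annotation release. Per the labels' protocols, total RNA was isolated with TRIzol, 100 µg entered each AQ-seq library, and sequencing was on a NovaSeq.

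Counts were rounded to whole numbers, scaled by TMM and filtered with filterByExpr. All 8 libraries were fitted by group with edgeR 4.0.16 (robust quasi-likelihood F test, Benjamini-Hochberg over all 625 tested names, called at an adjusted p under 0.05). Strand ratios, log2((5p + 0.5)/(3p + 0.5)), were tested with limma 3.58.1 (trend, robust) over 174 pairs with at least 80 reads per strand. DESeq2 1.42.0 was an alternative, as were other filters, a depth class, library total, a replicate block and leaving out each library. R 4.3.3, Python 3.11.15 and matplotlib 3.10.9 were used. The scripts' tests were checked on simulated data.

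Totals per library, replicate 1 before 2, were 1137858 and 4269231 reads (WT), 2241881 and 462805 (R1855L), 3340304 and 841857 (R821H), and 1143373 and 675934 (R1003Q). Intervals are Clopper-Pearson at 95%. Replicates of a group differed beyond sampling noise (chi-square per degree of freedom 13.0 to 238), so none was counted as a duplicate. The members and lists were chosen with earlier results of these data known. Members named are the 10 with the highest mean level, any called, the 3 highest and 3 lowest log2 fold changes per comparison, and every pair with a tested ratio. Others, such as those counted as not overlapping and the untested names, were named after their values were seen.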

Additional observations from a re-analysis of the deposited data

How the results depend on the processing

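Without any 1 library, without the filter on low counts, with a stricter filter (7 members tested), with DESeq2 and with the replicate number as a block, 0 members were called in each comparison with WT and in the test of any difference. The strand ratio counts stayed at 0 except with the depth class. With the depth class as a term, the R1855L count was 2 (28.3% of names), that for any difference 1 (24% of names), and that for the R1855L strand ratios 1 (18.4% of pairs). With the log2 library total as a covariate, the R1855L count was 3 (miR-548ai, b-5p and n), against 25.9% of names, and that for any difference 2, against 16.8%. The block called 0 members. Same-numbered libraries correlated between -0.69 (WT and R1855L) and 0.56 (R1855L and R821H). Among WT, R1855L and R821H the sign follows which replicate was deep. The correlations therefore cannot show whether same-numbered libraries were prepared together. The correlation was under -0.1 for WT with R1855L and with R821H. A crossed pairing, chosen after seeing the data, was therefore fitted on the 4 libraries compared. It pairs deep with deep and shallow with shallow libraries, so it is the depth class term again and no separate check. This fit called 3 members in R1855L (miR-548b-5p, d-3p and d-5p), against 28.9% of the 650 names tested there, and 0 in R821H, against 0%.

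In R1003Q the summed level was 609 CPM, 492 without the most abundant member and 555 without miR-548ai (the last chosen after seeing the data). Drawn down to the smallest total, WT 2 held 30.8 members, R1855L 1 held 33.1, R821H 1 held 31.7 and R1003Q 1 held 30.5. The number of members higher in deep libraries ran from 5 to 9 when 1 library was left out, an alternative chosen after seeing the data. Of 51 log2 fold changes 18 kept their sign in every alternative, all 3 of miR-548d-3p among them (R1855L -1.10 to -0.57, R821H -1.25 to -0.56, R1003Q -1.51 to -0.94). Of 12 ratio differences 8 kept their sign. Depth limits the 41 untested members. The cause of these shifts was not tested.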
